A study of Mus musculus with 11 samples.

Results

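The erythroid genes described here are 8 genes of the red blood cell lineage: Klf1, Epor, Tfrc, Ank1, Slc4a1, Sptb, Nfe2 and Alas2. They were represented by every ATAC-seq peak, or stretch of open chromatin, whose gene identifier, as assigned in the authors' deposited tables, belonged to one of them. This gave 36 of 94410 peaks, at 7 of the 8 genes: 17 for Ank1, 5 for Sptb, 4 each for Tfrc, Nfe2 and Alas2, 1 each for Klf1 and Epor, and 0 for Slc4a1. The peaks came from purified haematopoietic stem cells (HSCs) of mouse bone marrow, isolated at steady state. All groups carried the genotype Gfplc3/Gfplc3, a reporter of GFP fused to the autophagosome protein LC3, whose signal is lost as autophagosomes are degraded. There were 5 libraries of young HSCs, labelled unfractionated, 3 of old HSCs with the autophagy status AThi (GFPlo) and 3 of old HSCs with the status ATlo (GFPhi). The titles give the old fractions shared numbers, without saying that a number is 1 animal. Young HSCs were not sorted by GFP, so age and fractionation cannot be told apart in either comparison with young. The number of animals per library, their age in numbers and their sex are not given in the sources used here.

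Red cells arise from HSCs through progenitors in which GATA1 and its partners open erythroid genes. KLF1 binds CACCC boxes and drives much of this programme, and NF-E2, a pair of the Nfe2 product and a small MAF protein, acts at globin and platelet genes. Erythropoietin signals through the receptor encoded by Epor, Tfrc encodes the transferrin receptor that brings in iron, and Alas2 encodes the erythroid enzyme of the first step of heme synthesis. Ank1, Sptb and Slc4a1 encode ankyrin, beta-spectrin and the anion exchanger band 3, which together hold the red cell membrane to its skeleton. In HSCs, an open site at such a gene is a mark of accessibility and not a measurement of its expression.

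RefSeq promoter windows of 300 bases, from 250 before to 50 after the start, were found for 5 of the 8 genes (Klf1, Epor, Tfrc, Sptb and Alas2, the Tfrc entry with 2 starts). Those of Klf1, Epor, Alas2 and Sptb are printed because they show the contrasts at the starts described next. All are in the build GRCm38.p6, 5′ to 3′ on the gene's strand: Klf1 at chr8:84901732-84902031 (plus), Epor at chr9:21963527-21963826 (minus), Alas2 at chrX:150547167-150547466 (plus) and Sptb at chr12:76710498-76710797 (minus). Capitals mark GATA matches (AGATAA or TGATAA) and CACCC-box matches (CCNCNCCC) on either strand, where overlapping matches run together.
Klf1: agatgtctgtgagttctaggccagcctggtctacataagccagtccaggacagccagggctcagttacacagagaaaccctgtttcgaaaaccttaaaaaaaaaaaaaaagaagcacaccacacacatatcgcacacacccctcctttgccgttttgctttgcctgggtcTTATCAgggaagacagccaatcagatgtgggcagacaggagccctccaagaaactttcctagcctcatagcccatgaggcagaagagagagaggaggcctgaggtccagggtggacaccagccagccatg
Epor: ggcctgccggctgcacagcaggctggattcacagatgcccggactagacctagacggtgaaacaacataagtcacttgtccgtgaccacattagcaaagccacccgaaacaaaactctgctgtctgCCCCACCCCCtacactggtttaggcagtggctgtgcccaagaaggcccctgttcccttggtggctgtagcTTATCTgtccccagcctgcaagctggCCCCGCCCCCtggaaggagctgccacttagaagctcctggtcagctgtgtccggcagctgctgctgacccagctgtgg
Alas2: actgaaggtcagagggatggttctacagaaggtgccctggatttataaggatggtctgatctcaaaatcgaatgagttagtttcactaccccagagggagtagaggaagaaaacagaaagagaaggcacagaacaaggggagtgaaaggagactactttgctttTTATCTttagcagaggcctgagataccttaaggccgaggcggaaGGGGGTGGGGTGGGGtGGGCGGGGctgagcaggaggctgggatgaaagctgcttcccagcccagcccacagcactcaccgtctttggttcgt
Sptb: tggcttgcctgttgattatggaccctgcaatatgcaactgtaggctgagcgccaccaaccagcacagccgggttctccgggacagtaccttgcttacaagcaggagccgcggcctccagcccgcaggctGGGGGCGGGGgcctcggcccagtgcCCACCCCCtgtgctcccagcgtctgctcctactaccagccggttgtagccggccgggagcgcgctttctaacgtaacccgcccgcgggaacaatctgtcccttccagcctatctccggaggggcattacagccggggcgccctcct

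A GATA match lay in 3 of the 6 windows found, at position -80 from the start in Klf1, -54 in Epor and -86 in Alas2. Of the 32851 RefSeq windows of this length, 18.6% hold at least 1. Sptb and both Tfrc windows had 0. CACCC-box matches, overlapping ones counted each, numbered 4 in Epor, 4 in Alas2, 3 in Sptb and 0 in Klf1, and 5 and 3 in the Tfrc windows. The Tfrc windows overlap, so matches in the shared stretch are counted in both. Such a match is present in 49.5% of all windows. The NF-E2 letters TGAGTCA or TGACTCA and the STAT5 letters TTCNNNGAA were found in 0 of the 6 windows of these genes, against 5.2% and 8.3% of all windows. E-box letters (CANNTG) matched 5 times in Epor, 1 time in Klf1 and in Sptb and 0 times in Alas2, and are present in 72.3% of all windows. These are matches of letters and not measured binding.

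The 8 genes fell into 3 kinds by the accessibility of their starts. Nfe2, Tfrc, Sptb and Ank1 had peaks over an annotated start, Klf1 and Epor had 1 peak each that began downstream of it, and Alas2 and Slc4a1 had no peak within 1 kb of a start. In all, 9 of the 36 peaks were promoter peaks (within 1 kb of a start), and 7 of these 9 covered the start itself. Over all genes, 79.4% of the 18102 promoter peaks covered the start, and 72.1% of the 20810 genes with a peak had a promoter peak. Of the other peaks, 3 lay in promoter flanks at 1 to 3 kb, 13 in introns, 3 in exons and 8 in intergenic DNA. The median peak was 541.5 bp wide, against 547 bp over all peaks.

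**Figure D1:**
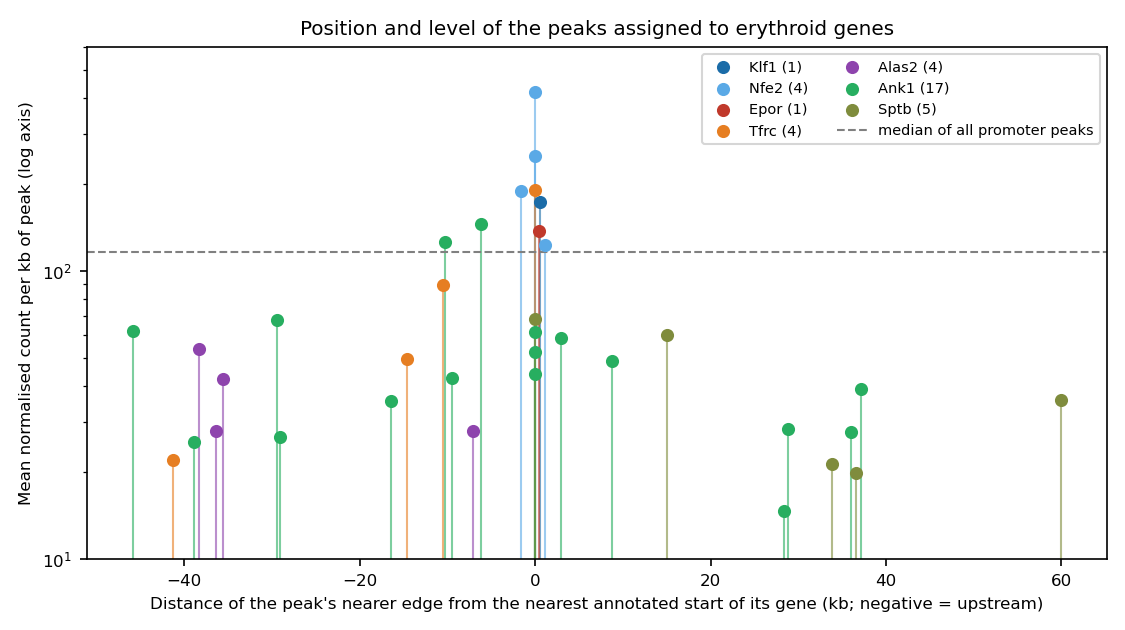
Position and level of the 36 peaks. Each point is 1 peak of the gene in its colour (number of peaks in brackets), the horizontal axis is the distance in kb from the nearest annotated start of the gene, and the vertical log axis is the authors' mean normalised count over all 11 libraries per kb of peak width. The dashed line is the median of all promoter peaks (117 per kb). The highest point is the Nfe2 promoter peak at 417 per kb, an Ank1 peak in intron 1 (145 per kb) lies above Epor (138 per kb), and Alas2 has no point near 0.

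Levels at the starts were compared per length, as the authors' mean normalised count over the 11 libraries divided by the peak width in kb. The strongest was an Nfe2 promoter peak at 417 per kb, at or above 98.4% of all promoter peaks. A second Nfe2 start had 252 per kb, Tfrc 191, Klf1 173 and Epor 138, all above the promoter median of 117 per kb. Sptb at 68.0 per kb and the 3 Ank1 starts at 61.5, 52.2 and 44.1 per kb lay below it. This placement depends on dividing by width. By mean normalised count alone, Sptb had 139, above the promoter median of 122, and the second Nfe2 start had 119, below it. The tables hold the mean over all libraries without a spread, so neighbours in this order were not tested. Where a level per group is given below, it was implied by this mean and the authors' fold changes, is approximate, and has no SD.

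Each of 10 HSC markers (among them Mecom, Hlf, Procr and Kit) had a promoter peak, at 52.4 to 296 per kb. Over all genes with a peak, 72.1% had one, so a promoter peak alone does not identify the cells. Among the markers of mature erythroid cells, the adult globin genes Hba-a1, Hba-a2 and Hbb-bs had 0 peaks. Peaks of the whole list of 8 such markers numbered 17, and 0 were called in any comparison. Of 6 megakaryocyte markers 5 had a promoter peak (92.4 to 194 per kb), as did 0 of 7 myeloid, 1 of 4 B cell, 2 of 4 T cell and 2 of 3 endothelial markers. The authors' deposited tables called HSC marker peaks higher at 16 and lower at 3 of 151 in old AThi HSCs, and at 10 and 4 in old ATlo HSCs. These are 12.6% and 9.27% of the list's peaks, near the 10.1% and 9.24% over all peaks. Megakaryocyte marker peaks were called higher at 5 and lower at 0 of 28 in AThi and at 2 and 1 in ATlo HSCs, or 17.9% and 10.7% of them. Endothelial marker peaks were called higher at 3 of 13 in AThi (23.1%) and at 2 in ATlo HSCs (15.4%), and 0 were lower. Of 16 T cell marker peaks 12.5% were called in AThi and 0.0% in ATlo HSCs. Of 15 myeloid and 4 B cell marker peaks 0 were called in either comparison with young. The part of these markers in the results below was not tested. In bulk libraries, fewer cells with an open site and less opening per cell cannot be told apart.

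Few peaks of the erythroid genes passed the authors' test between old and young HSCs. Called means an adjusted p under 0.05 according to the authors' deposited tables, from the DESeq2 Wald test with adjustment over all peaks. In old AThi HSCs, 0 of the 36 peaks were called, where 10.1% of all 94410 peaks were (7.42% higher and 2.69% lower). In old ATlo HSCs, 1 peak was called, an Ank1 peak that fell, where 9.24% of all peaks passed (6.75% higher and 2.49% lower). At an unadjusted p under 0.05, 7 peaks passed in AThi and 5 in ATlo HSCs, against 22.4% and 21.7% of all peaks. The median log2 change over the 36 peaks was -0.13 in AThi and -0.12 in ATlo HSCs, beside -0.04 and -0.03 over all peaks. Of the 36, 10 had both old groups above young, 21 had both below and 5 had 1 on each side. Both comparisons use the same young libraries. Values above 0 made up 36.1% of the 36 peaks in AThi and 33.3% in ATlo HSCs. Over all peaks they made up 46.3% and 47.0%, and over all promoter peaks 37.6% and 33.4%.

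The direction of small changes rested on the scaling. The 1811 strong promoters (the 10% of promoter peaks with the highest mean normalised count) had a median log2 change of -0.22 in AThi and -0.31 in ATlo HSCs. With that median moved to 0, the median over the 36 peaks became 0.09 and 0.19. Then 4 peaks were called in AThi and 3 in ATlo HSCs, all higher, beside 14.2% and 17.2% of all peaks. This setting adds the same amount to every log2 change, so it moves every peak upward. The split of all peaks by direction under it was not computed.

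The precision of these values varied with the level of the peak. The median SE of the log2 change over the 36 peaks was 0.30 in AThi and 0.28 in ATlo HSCs, beside 0.33 and 0.32 over all peaks. The 95% interval, from the SE by the normal distribution, lay wholly within 2-fold of young for all 9 promoter peaks in both old groups. Over all 36 peaks it did so for 19 in AThi and 20 in ATlo HSCs. At the others, most of them weaker, the interval reached beyond 2-fold on at least 1 side.

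**Figure D2:**
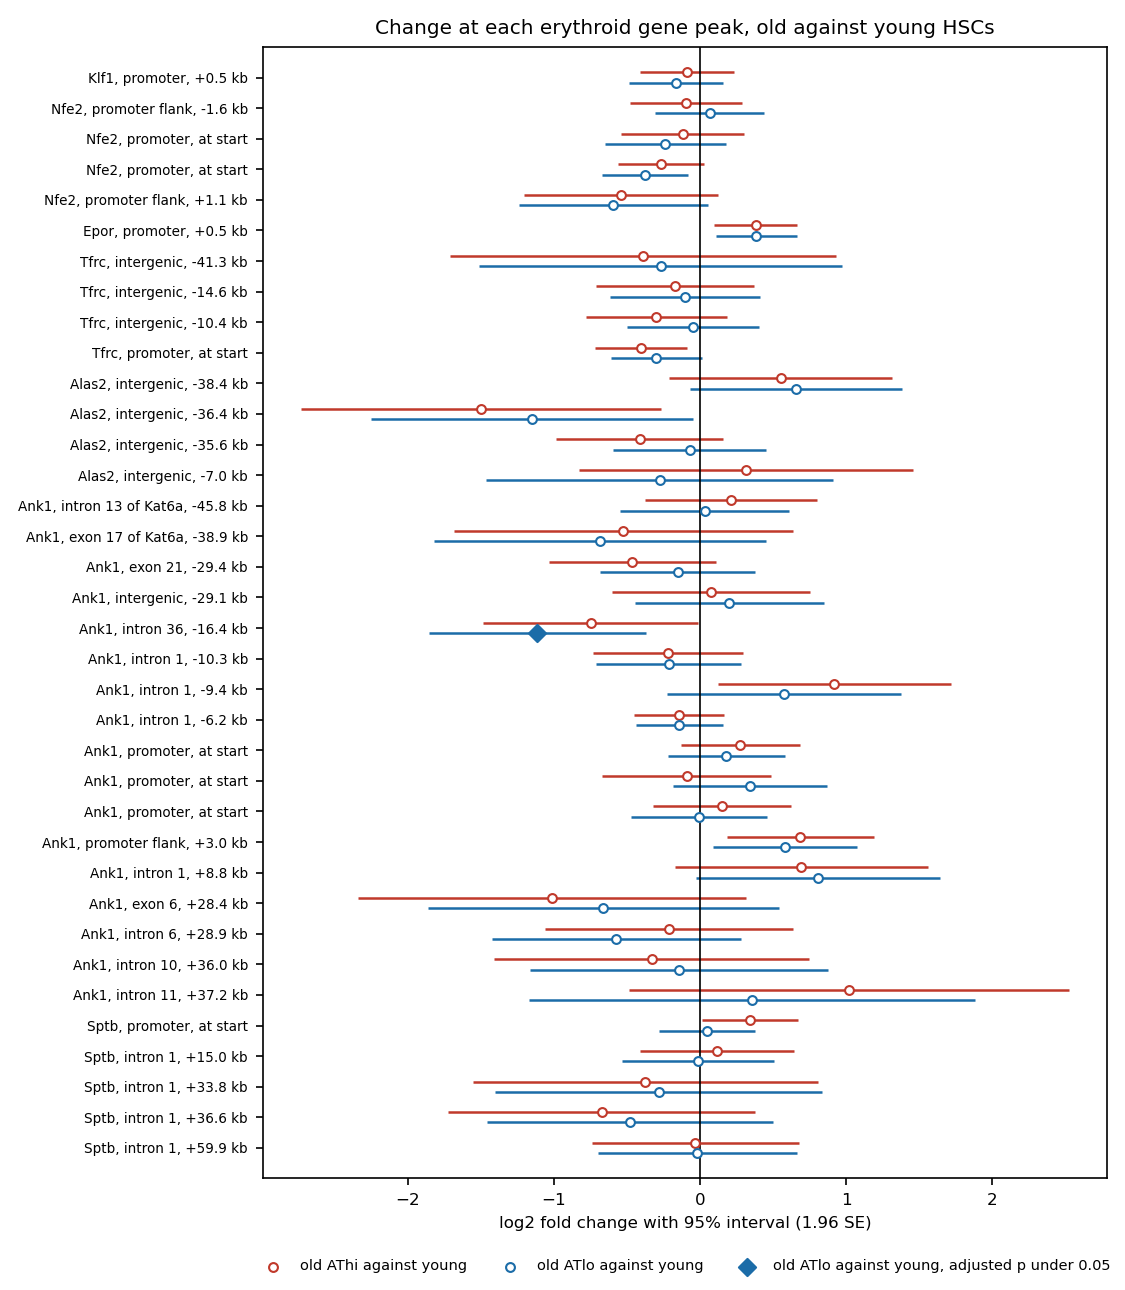
Log2 fold change at each of the 36 peaks, old AThi (red) and old ATlo (blue) against young HSCs, from the authors' deposited tables. Bars are 95% intervals from the SE, rows give the gene, the feature and the distance from the nearest start in kb, and the filled diamond marks an adjusted p under 0.05. One diamond is seen, at intron 36 of Ank1 in old ATlo HSCs (log2 -1.11), and bars are widest at weak distal peaks.

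Klf1, the CACCC-box factor, had a single peak on chromosome 8 (85629121 to 85630431, mm39), from 510 to 1820 bases downstream of its start. The printed window, with the GATA match at -80, ends 50 bases after the RefSeq start. The implied level was 238 normalised counts in young, 224 in old AThi and 212 in old ATlo HSCs, so both old groups lay slightly below young. By the authors' deposited tables the log2 change was -0.09 (SE 0.17, adjusted p = 0.81) in AThi and -0.17 (SE 0.16, adjusted p = 0.616) in ATlo HSCs. The 95% intervals ran from 0.75-fold to 1.18-fold and from 0.714-fold to 1.11-fold. With the median of strong promoters moved to 0 the values turned to 0.13 and 0.15, and neither passed (adjusted p = 0.699 and 0.628).

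Nfe2, the large subunit of NF-E2, had its 4 peaks in a cluster on chromosome 15, from position -2340 of one start to 1398 of another. The strongest, over the upstream start (103166237 to 103167260), had implied levels of 480 normalised counts in young, 399 in AThi and 369 in ATlo HSCs. Its log2 change according to the authors' deposited tables was -0.27 (SE 0.15, adjusted p = 0.284) and -0.38 (SE 0.15, adjusted p = 0.0896), and neither value passed. The peak over the downstream start had implied levels of 127, 117 and 108, with log2 changes of -0.12 (SE 0.21) and -0.24 (SE 0.21) according to the authors' deposited tables. Of the flanking peaks, the one 1132 bases past a start had -0.54 (SE 0.34) and -0.59 (SE 0.33), and the one at position -1646 of a start -0.10 (SE 0.20) and 0.07 (SE 0.19). All 4 Nfe2 peaks were below 0 in AThi and 3 were in ATlo HSCs, in comparisons that share the young libraries, and 0 passed. With the median of strong promoters moved to 0, the strongest peak had -0.04 and -0.07 and the downstream start turned to 0.10 and 0.07.

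Epor, the erythropoietin receptor gene, also had a single peak, on chromosome 9 (21872733 to 21874392), from 480 to 2139 bases downstream of its start, while the printed window with its GATA and CACCC matches ends 50 bases after the RefSeq start. Its implied level was 196 normalised counts in young HSCs and 256 and 257 in old AThi and ATlo HSCs, so both old groups lay above young by nearly the same amount. The log2 change according to the authors' deposited tables was 0.38 in AThi (SE 0.15, adjusted p = 0.0719) and 0.39 in ATlo HSCs (SE 0.14, adjusted p = 0.0638), and neither passed. The 95% intervals ran from 1.07-fold to 1.59-fold and from 1.08-fold to 1.59-fold. The call rests on the scaling: with the median of all peaks moved to 0 the adjusted p became 0.0375 in AThi and 0.039 in ATlo HSCs, and with the median of strong promoters moved to 0 the log2 changes became 0.60 (adjusted p = 0.000594) and 0.70 (adjusted p = 2.64e-05).

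**Figure D3:**
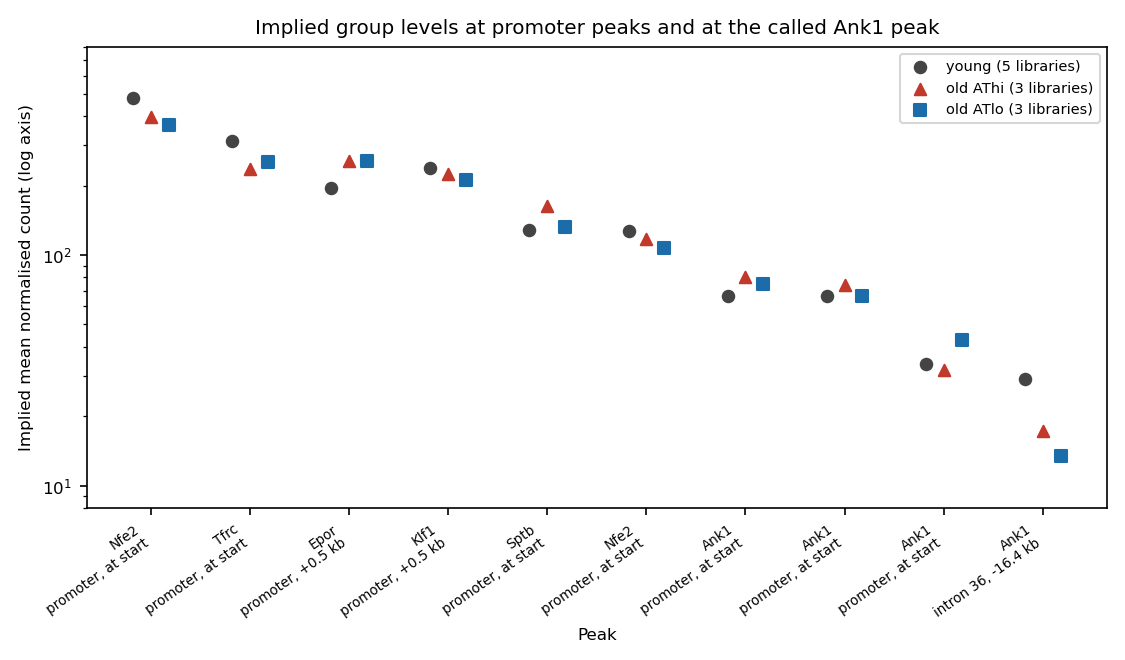
Implied mean normalised count in young (circles, 5 libraries), old AThi (triangles, 3) and old ATlo HSCs (squares, 3) at the 9 promoter peaks and at the called Ank1 peak, on a log axis. Levels were computed from the authors' mean over all libraries and fold changes, so no error bars can be drawn. Old groups lie above young at Epor (256 and 257 against 196) and below it at the strong Nfe2 peak and at Tfrc, and the widest separation is at Ank1 intron 36.

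Tfrc, the transferrin receptor gene, had a promoter peak on chromosome 16 (32427175 to 32428619), from position -539 to 905 of the start. Its implied level was 313 normalised counts in young, 236 in AThi and 254 in ATlo HSCs, so both old groups lay below young. The authors' deposited tables gave -0.40 in AThi (log2, SE 0.16, adjusted p = 0.0893) and -0.30 in ATlo HSCs (SE 0.16, adjusted p = 0.249), and neither passed. The 95% intervals were 0.607-fold to 0.94-fold and 0.656-fold to 1.01-fold. Upstream, 3 intergenic peaks at 10.4, 14.6 and 41.3 kb from the start had log2 changes between -0.39 and -0.17 in AThi and between -0.27 and -0.05 in ATlo HSCs according to the authors' deposited tables. All 4 Tfrc peaks were below 0 in both comparisons, which share the young libraries, and 0 passed. With the median of strong promoters moved to 0, the promoter had -0.18 in AThi and 0.01 in ATlo HSCs.

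Alas2, the heme synthesis gene on the X chromosome, had no peak at its start or in its body. Its 4 peaks were intergenic, the nearest 7.04 kb upstream and the other 3 from 35.6 to 38.4 kb upstream, at mean normalised counts of 7.10 to 33.7. The peak 36.4 kb upstream (149293675 to 149293991) had implied levels of 13.1 normalised counts in young, 4.63 in AThi and 5.90 in ATlo HSCs, the largest fold difference from young among the 4 Alas2 peaks in each old group. The authors' deposited tables gave -1.50 (log2, SE 0.63, adjusted p = 0.112) and -1.15 (SE 0.56, adjusted p = 0.2), and neither passed. Its neighbour 38.4 kb upstream went the other way, with 0.55 (SE 0.39) and 0.66 (SE 0.37) according to the authors' deposited tables. At these few counts the intervals were wide, from 0.151-fold to 0.83-fold for the first in AThi HSCs.

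Ank1, the ankyrin gene on chromosome 8, had 17 peaks, of which 3 covered alternative starts and 2 lay inside the neighbouring gene Kat6a. The called peak (23611992 to 23612603) was in intron 36 of the 43 introns of the long transcript, 16.4 kb upstream of the start of a short transcript. Its implied level was 29.1 normalised counts in young, 17.3 in AThi and 13.4 in ATlo HSCs, so both old groups lay below young. It fell by 1.11 on the log2 scale in ATlo HSCs (SE 0.38, adjusted p = 0.0386), to 0.462-fold with a 95% interval from 0.277-fold to 0.773-fold, according to the authors' deposited table. In AThi HSCs the authors' deposited table gave -0.75 (SE 0.38, adjusted p = 0.211). The direct comparison of AThi with ATlo at this peak gave 0.36 (SE 0.45, adjusted p = 1) according to the authors' deposited table, so a difference between the old fractions was not shown. With the median of strong promoters moved to 0, the ATlo change was -0.80 and did not pass (adjusted p = 0.137).

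The starts of Ank1 had no called change. Implied levels in young, AThi and ATlo HSCs were 66.4, 80.4 and 75.2 normalised counts at the most upstream start, 33.7, 31.6 and 42.7 at the second and 66.7, 74.0 and 66.4 at the third. Their log2 changes lay between -0.09 and 0.28 in AThi and between -0.01 and 0.34 in ATlo HSCs according to the authors' deposited tables. A peak 2963 bases past the second start (23528078 to 23528890) had implied levels of 36.4, 58.7 and 54.5, with 0.69 (SE 0.26, adjusted p = 0.0629) and 0.58 (SE 0.25, adjusted p = 0.132) according to the authors' deposited tables. It passed in AThi HSCs with the median of all peaks moved to 0 (log2 0.73, adjusted p = 0.0437). The strongest Ank1 peak by level, in intron 1 and 6.18 kb upstream of the second start (23517770 to 23518932), had implied levels of 178, 161 and 162 and log2 changes of -0.14 (SE 0.16) and -0.14 (SE 0.15) according to the authors' deposited tables. Over the 17 peaks, 8 were above 0 and 9 below in each comparison with young.

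Sptb, the beta-spectrin gene on chromosome 12, had a promoter peak (76755767 to 76757804) from position -483 to 1554 of its start, a stretch as wide on both sides as the printed window or wider. Its implied level was 128 normalised counts in young, 163 in AThi and 132 in ATlo HSCs, highest in AThi and close to each other in the other two. The authors' deposited tables gave 0.34 (log2, SE 0.17, adjusted p = 0.197) in AThi and 0.04 (SE 0.17, adjusted p = 0.92) in ATlo HSCs, and the direct AThi against ATlo value of 0.30 (SE 0.19, adjusted p = 1) did not pass. With the median of strong promoters moved to 0, the AThi change was 0.57 and passed (adjusted p = 0.00846). The other 4 peaks lay in intron 1 at mean normalised counts of 8.03 to 45.2, and none passed in either comparison (adjusted p of at least 0.493 in AThi and 0.636 in ATlo HSCs). A further 5 peaks lay inside later introns of Sptb but carried AI463170 as the nearest gene, so the rule did not count them. The strongest of these, in intron 15 (76661386 to 76662560), had 143 mean normalised counts per kb, more than the Sptb promoter, and log2 changes of 0.02 (SE 0.16) and -0.08 (SE 0.16) according to the authors' deposited tables.

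Slc4a1, the band 3 gene on chromosome 11, had 0 assigned peaks, and 0 peaks were annotated to its exons or introns. In RefSeq order it stands between Ubtf and Gm34253. The last peak of Ubtf (102229345 to 102230322) and the first of Gm34253 (102266067 to 102267180) were 35.7 kb apart with 0 peaks between them. That Gm34253 promoter peak had implied levels of 46.0, 54.1 and 57.0 normalised counts in young, AThi and ATlo HSCs, and did not pass in either comparison of the authors' deposited tables (adjusted p = 0.652 and 0.516). The Ubtf peak had implied levels of 65.9, 80.6 and 94.9. The authors' deposited tables gave it 0.29 (log2, SE 0.21, adjusted p = 0.436) in AThi and 0.53 (SE 0.20, adjusted p = 0.0753) in ATlo HSCs. Neither value passed.

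The old fractions were not told apart at any of these peaks. Between AThi and ATlo HSCs, 0 of 36 peaks and 0.0% of all 94410 peaks were called by the authors' DESeq2 Wald test, and 0 of the 36 passed at an unadjusted p under 0.05, where 1.78% of all peaks did. The median log2 difference was -0.01 over the 36 peaks and 0.01 over all peaks. For Epor the AThi against ATlo value was -0.01 (SE 0.16) according to the authors' deposited table, with a 95% interval from 0.803-fold to 1.24-fold. For Klf1 it was 0.08 (SE 0.18), from 0.823-fold to 1.35-fold, according to the authors' deposited table. The interval stayed within 2-fold for 22 of the 36 peaks.

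Another 86 genes of the erythroid pathway, in 7 groups, gave context. A peak was found for 79 of them, 466 peaks in all, of which 6.01% were called in AThi and 7.73% in ATlo HSCs, beside 10.1% and 9.24% of all peaks. Calls went both ways, 19 higher and 9 lower in AThi and 21 higher and 15 lower in ATlo HSCs. With the median of strong promoters moved to 0 the calls were 48 higher and 2 lower in AThi and 58 higher and 0 lower in ATlo HSCs. Under that setting 14.2% and 17.2% of all peaks were called. The split by direction thus rests on the scaling, which moves every peak upward alike. This split was not compared with that of all peaks under the same setting.

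**Figure D4:**
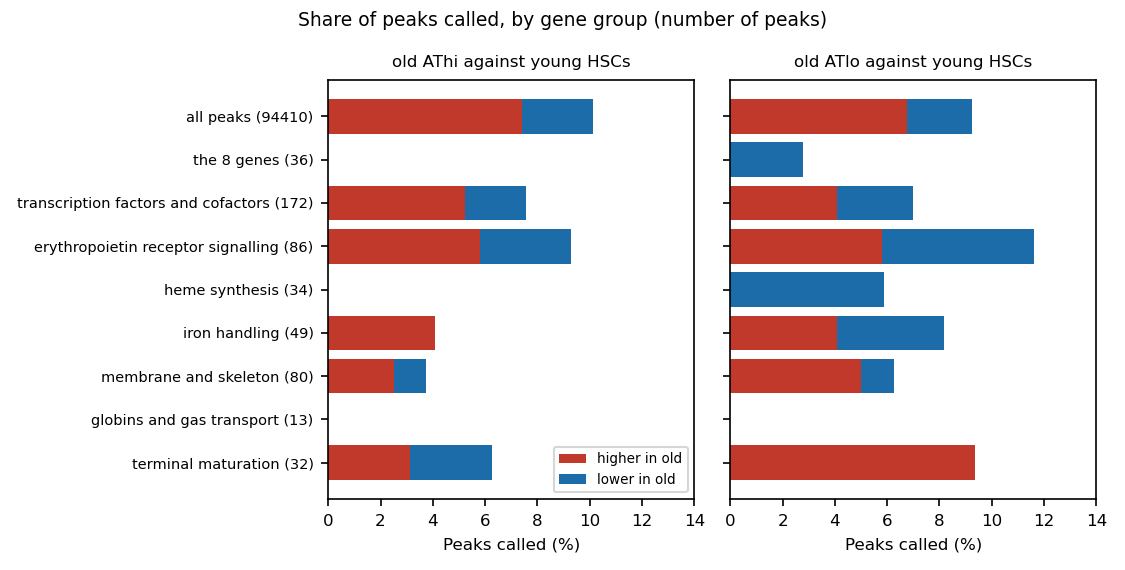
Share of peaks called at an adjusted p under 0.05, higher (red) or lower (blue) in old than in young HSCs, for all peaks, the 8 genes and the 7 groups of other erythroid genes, with the number of peaks in brackets. The 8 genes have no bar in the AThi panel and 1 lower peak in the ATlo panel, and globin and gas transport genes have none in either.

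Of the 172 peaks of transcription factors and cofactors, 7.56% were called in AThi and 6.98% in ATlo HSCs, in both directions, beside 10.1% and 9.24% of all peaks. Of the 18 genes, 7 held a higher peak, 4 a lower one and 7 neither in AThi HSCs, and 5, 4 and 9 did in ATlo HSCs. The promoter of Gata2, a stem cell factor that precedes GATA1, rose by 0.90 (log2, SE 0.17) in AThi and 0.56 (SE 0.17) in ATlo HSCs according to the authors' deposited tables. Intron 1 of Mafk, which encodes a small MAF partner of NF-E2, rose by 0.91 (SE 0.19) in AThi HSCs and had 0.53 (SE 0.19, adjusted p = 0.0507) in ATlo HSCs according to the authors' deposited tables. The Sox6 promoter, whose factor silences embryonic globin, rose by 1.21 (SE 0.34) in ATlo and 1.01 (SE 0.35) in AThi HSCs according to the authors' deposited tables. A peak flanking the promoter of the repressor Bcl11a fell by 0.68 (SE 0.17) in AThi HSCs and had -0.35 (SE 0.16, adjusted p = 0.153) in ATlo HSCs according to the authors' deposited tables. A flank peak of Cbfa2t3, a corepressor gene, fell by 0.50 (SE 0.16) in AThi and by 0.58 (SE 0.16) in ATlo HSCs according to the authors' deposited tables. A promoter peak of Zbtb7a, a globin repressor gene, fell by 0.60 (SE 0.20) in AThi and by 0.69 (SE 0.20) in ATlo HSCs according to the authors' deposited tables. With strong promoters moved to 0 neither passed in AThi (adjusted p = 0.277 and 0.238) or ATlo HSCs (adjusted p = 0.252 and 0.193).

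Of the 86 peaks of erythropoietin receptor signalling genes, 9.3% were called in AThi and 11.6% in ATlo HSCs, near the 10.1% and 9.24% over all peaks. Calls went both ways, with 2 of 10 genes holding a higher peak, 3 a lower one and 6 neither in AThi HSCs, and 2, 5 and 4 in ATlo HSCs, where Kit counted in both directions in each comparison. A distal peak of Socs3, a feedback inhibitor of cytokine receptors, rose by 1.65 (log2, SE 0.40) in AThi and 1.73 (SE 0.38) in ATlo HSCs according to the authors' deposited tables. This Socs3 peak was weak, at a mean normalised count of 18.1. A distal peak of Cish, another such inhibitor, fell by 0.76 (SE 0.23) and by 0.61 (SE 0.22) according to the authors' deposited tables. A peak 114 kb upstream of Kit, the stem cell factor receptor, fell by 1.89 (SE 0.57) in AThi HSCs, where ATlo HSCs had -0.65 (SE 0.44, adjusted p = 0.407), according to the authors' deposited tables. This distal Kit peak was weak, at a mean normalised count of 12.7. The Kit promoter fell by 0.51 (SE 0.15) in ATlo HSCs and had -0.37 (SE 0.15, adjusted p = 0.0848) in AThi HSCs according to the authors' deposited tables. Intron 1 of the kinase gene Lyn fell by 0.75 (SE 0.26) in ATlo HSCs and by 0.85 (SE 0.27) in AThi HSCs according to the authors' deposited tables. With strong promoters moved to 0, the Cish, Lyn and Kit promoter changes did not pass (adjusted p = 0.39, 0.266 and 0.422 in ATlo HSCs).

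Of the peaks of heme synthesis, iron and membrane genes, 0.0%, 4.08% and 3.75% were called in AThi HSCs, where 10.1% of all peaks were, and 5.88%, 8.16% and 6.25% in ATlo HSCs, where 9.24% were. Of 13 heme synthesis genes 0 had a called peak in AThi HSCs, and 2 had a lower one in ATlo HSCs: intron 5 of Fech, the enzyme gene that puts iron into protoporphyrin, fell by 1.19 (log2, SE 0.34) and the Ppox promoter fell by 0.40 (SE 0.13) according to the authors' deposited table, and neither passed with strong promoters moved to 0 (adjusted p = 0.0512 and 0.724). In AThi HSCs the Fech peak had -0.83 (SE 0.33, adjusted p = 0.0909) and the Ppox promoter -0.24 (SE 0.13, adjusted p = 0.284) according to the authors' deposited table. Of 10 iron genes 2 had a higher peak in each old group, and both of these also had a lower one in ATlo HSCs. A distal peak of Ireb2, which encodes an iron-sensing RNA-binding protein, rose by 1.63 (SE 0.32) in AThi and 1.64 (SE 0.31) in ATlo HSCs according to the authors' deposited tables. A peak near Fth1, the ferritin heavy chain gene, in intron 11 of Best1, rose by 0.83 (SE 0.21) and 0.66 (SE 0.21) according to the authors' deposited tables. Of 16 membrane genes 2 had a higher and 1 a lower peak in AThi HSCs, and 4 and 1 did in ATlo HSCs. A distal peak of the glycophorin gene Gypc rose by 1.91 (SE 0.32) in AThi and 1.50 (SE 0.32) in ATlo HSCs, and a promoter flank peak of the water channel gene Aqp1 by 0.83 (SE 0.21) and 0.74 (SE 0.21), according to the authors' deposited tables. Exon 4 of Add2, an adducin gene, rose by 1.68 (SE 0.40) in ATlo HSCs and had 1.09 (SE 0.43, adjusted p = 0.0874) in AThi HSCs according to the authors' deposited tables. The Add2 peak was weak, at a mean normalised count of 16.7. A distal peak of Cd47 fell by 0.54 (SE 0.18) in AThi HSCs and had -0.37 (SE 0.17, adjusted p = 0.168) in ATlo HSCs according to the authors' deposited tables. The Cd47 peak did not pass with strong promoters moved to 0 (adjusted p = 0.253).

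Of 12 globin and gas transport genes 5 had a peak, 13 peaks in all. Of these 13, 0 were called in either comparison, where 10.1% of all peaks were in AThi and 9.24% in ATlo HSCs. At an unadjusted p under 0.05, 2 passed in AThi and 1 in ATlo HSCs, against 22.4% and 21.7% of all peaks. These 13 peaks are too few to set the group apart from all peaks. Of the 32 peaks of 7 terminal maturation genes, 6.25% were called in AThi and 9.38% in ATlo HSCs, beside 10.1% and 9.24% of all peaks. Tspo2, an erythroid membrane protein gene, had a distal peak that rose in both old groups. Its log2 change was 2.55 (SE 0.44) in AThi and 1.89 (SE 0.45) in ATlo HSCs according to the authors' deposited tables. This peak was weak, at a mean normalised count of 17.8 and an implied level of 5.79 in young HSCs. The urea transporter gene Slc14a1 had a promoter peak that fell by 0.84 (SE 0.28) in AThi HSCs and had 0.17 (SE 0.24, adjusted p = 0.752) in ATlo HSCs according to the authors' deposited tables. Its direct AThi against ATlo value was -1.01 (SE 0.31, adjusted p = 1), which did not pass. An intron 1 peak of Slc14a1 rose by 0.88 (SE 0.29) in ATlo HSCs and had 0.68 (SE 0.30, adjusted p = 0.149) in AThi HSCs according to the authors' deposited tables. With strong promoters moved to 0, the Slc14a1 promoter did not pass (adjusted p = 0.139). Between AThi and ATlo HSCs, 0 of the 466 peaks were called, as were 0.0% of all peaks. An unadjusted p under 0.05 was found for 10 of the 466, where 1.78% of all peaks had one.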

How the data were processed

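Each of 3 deposited tables holds 1 comparison for all 94410 peaks. Per the submitters' processing notes, the tools were DESeq2, featureCounts and MACS2, besides BWA, ChIPseeker, and cutadapt with Trim Galore, given without roles or versions. How reads were shifted, duplicates removed and peaks merged was not stated in the labels. The authors' deposited signal is a normalised count averaged over all libraries. Their deposited log2 fold changes come with SEs, a Wald score, p-values and adjusted p-values, which were used as they stand. All 3 comparisons came from 1 fit. Adjusted p-values were missing for 1831 weak peaks, 0 of them at the 8 genes. The files held 0 columns per sample, so depth per library is unknown and no model was refitted, although the design allowed for counts. All libraries were prepared on 1 day per the labels. The labels do not say how many animals a library came from, so a p-value covers only the spread among libraries.

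Peaks were taken as mm39, one of the 2 builds in the submitters' processing notes. Gene symbols came from the RefSeq GRCm38.p6 table (20791 of 20810 identifiers matched), and no coordinate was moved between builds. A group's implied level solves the mean over 5, 3 and 3 libraries for the authors' fold changes. The genes, lists and tests were chosen with earlier results of these data known. Named peaks of the 8 genes were all promoter peaks, called peaks and each gene's smallest p, with a few others named after their values were seen; for the other groups, the 3 genes with the smallest adjusted p among called peaks were named. Python 3.11.15 with pandas 2.3.3 and scipy 1.17.1 was used. The alternatives, given at the end, changed the threshold, centring, level filter and assignment.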

Additional observations from a re-analysis of the deposited data

How the results depend on the processing

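The count of called peaks at the 8 genes moved with the threshold and the centring. In old AThi HSCs it went from 0 to 3 at an adjusted p under 0.1, where 13.9% of all peaks passed. It went to 2 with the median of all peaks moved to 0, beside 10.2% of all peaks. With the median of 1811 strong promoters moved from -0.22 to 0 it was 4, all higher, beside 14.2% of all peaks. In old ATlo HSCs it went from 1 to 0 at an adjusted p under 0.01, where 5.03% of all peaks passed. It was also 0 with promoter peaks alone, where 12.6% of all promoter peaks were called. It went to 3 at an adjusted p under 0.1, beside 13.1% of all peaks. With the median of all peaks moved to 0 it was 2 (1 higher, 1 lower), beside 9.09% of all peaks. With strong promoters moved from -0.31 to 0 it was 3, all higher, beside 17.2% of all peaks. That last centring turned the ATlo median over the 36 peaks from -0.12 to 0.19. The other settings (a 2-fold minimum, no filter on low peaks, a mean normalised count of at least 10, peaks within 50 kb) left these counts as they were, and the AThi against ATlo count was 0 under every setting run. Centring of the other erythroid genes was chosen after seeing the data. Leaving out each library in turn was not run, because the files held no values per sample. No paired analysis was possible because the tables give no values per library, so the numbered old pairs could not enter a fit. The depth per library is unknown, and SEs were largest at weak distal peaks.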
